A study of Mus musculus with 2 samples.

Results

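Elastin, Eln, fibrillin 2, Fbn2, fibulin 2, Fbln2, and lysyl oxidase, Lox, are the genes described here, as measured in primary mouse osteoblasts with and without TGF-beta1. Their probes were found by gene name on the array, which gave 4 probes, 1 for each gene, of 3757 in all. The genes were chosen with their values on these arrays known, so those values are a description and no test was made on them. The treated culture had received TGF-beta1 at 2 ng/ml for 24 h, and the other culture was left untreated. Both cultures were primary murine osteoblasts, kept with little serum (0.2% FBS) in alphaMEM medium. The protocol text is the same for both samples, and the untreated state is given by the sample's title. RNA of each culture was hybridised to 1 array, so each group is 1 sample and no spread between replicates was measured.

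Elastic fibres let tissues stretch and recoil. Cells first lay down microfibrils of fibrillins, and tropoelastin, the product of Eln, is deposited on them with the help of fibulins. Lysyl oxidase then oxidises lysines of tropoelastin and of fibrillar collagen, which makes the cross-links that render both insoluble. Osteoblasts build a matrix mostly of type I collagen, in which cross-links by lysyl oxidase set the strength of the fibres. Fibrillin microfibrils in bone also bind latent TGF-beta and BMP complexes.

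Values are the authors' normalized spot intensities, in arbitrary units. A probe was taken as detected on an array when it exceeded the authors' signal threshold of 87.4, the signal of the brightest lambda phage control spot as a mean of both arrays, per the file headers. On the TGF-beta1 array 866 probes exceeded it and on the untreated array 924 did, with 795 above it on both and 995 on at least 1. The summed signal was 431093 on the TGF-beta1 array and 427889 on the untreated array. Ratios are TGF-beta1 over untreated, and fold calls were made on the 795 probes above the threshold on both arrays. The SD of the log2 ratio over these probes was 0.44 and over the 8 lambda control spots it was 0.20. Neither SD is a replicate error of any gene.

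The genes of the fibre itself had lower signals with TGF-beta1, and the cross-linking enzyme had a higher one. Eln, which encodes the elastic core, had a signal of 495 on the TGF-beta1 array and 947 on the untreated array. It was 1.91-fold lower with TGF-beta1, a log2 ratio of -0.94. Both signals were well clear of the threshold, at 5.66 times it with TGF-beta1 and 10.8 times it untreated. Counted from the lowest ratio, Eln ranked 27 among the 795 probes.

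Fbn2 encodes a microfibril protein made mainly in developing and remodelling tissue. Its signal was 177 with TGF-beta1 and 488 untreated. This made Fbn2 2.76-fold lower, a log2 ratio of -1.46. Of the 795 probes, Fbn2 ranked 2 from the lowest, and it was the member with the largest log2 ratio in size.

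Fbln2 encodes a protein that binds fibrillin and tropoelastin in the fibre. It was dim, with 60.8 on the TGF-beta1 array and 102 on the untreated array, and exceeded the threshold only when untreated. Its measured log2 ratio was -0.75, but with a treated signal below the threshold only a bound can be given, at least 1.16-fold lower. This bound divides the untreated signal by 87.6, the dimmest detected signal of the TGF-beta1 array.

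Lox was the exception in direction. Its signal was 608 with TGF-beta1 and 354 untreated, 1.72-fold higher, a log2 ratio of 0.78. It ranked 29 from the highest of the 795 probes. Of the 3 members above the threshold on both arrays, 1 was at least 1.5-fold higher and 2 at least 1.5-fold lower, where 7.17% of all such probes were higher and 8.18% lower. At 2-fold, Fbn2 was lower, beside 2.26% of all such probes, and no member was higher, beside 1.51%. In either direction 15.3% of these probes differed by at least 1.5-fold and 3.77% by at least 2-fold. Because the members were chosen on this contrast, nothing is read from these counts.

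**Figure D1:**
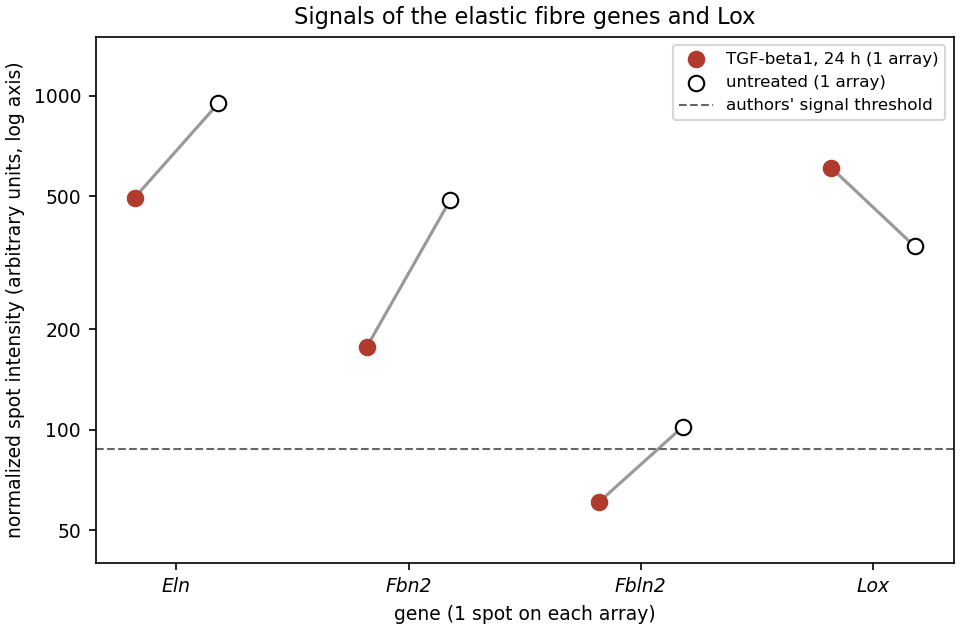
Normalized spot intensity (log axis) of each gene on the TGF-beta1 array (filled) and the untreated array (open), 1 spot per array with no error bars because there were no replicates. Eln, Fbn2 and Fbln2 lie lower with TGF-beta1 and Lox higher, and Fbln2 with TGF-beta1, at 60.8, is under the threshold of 87.4 (dashed).

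**Figure D2:**
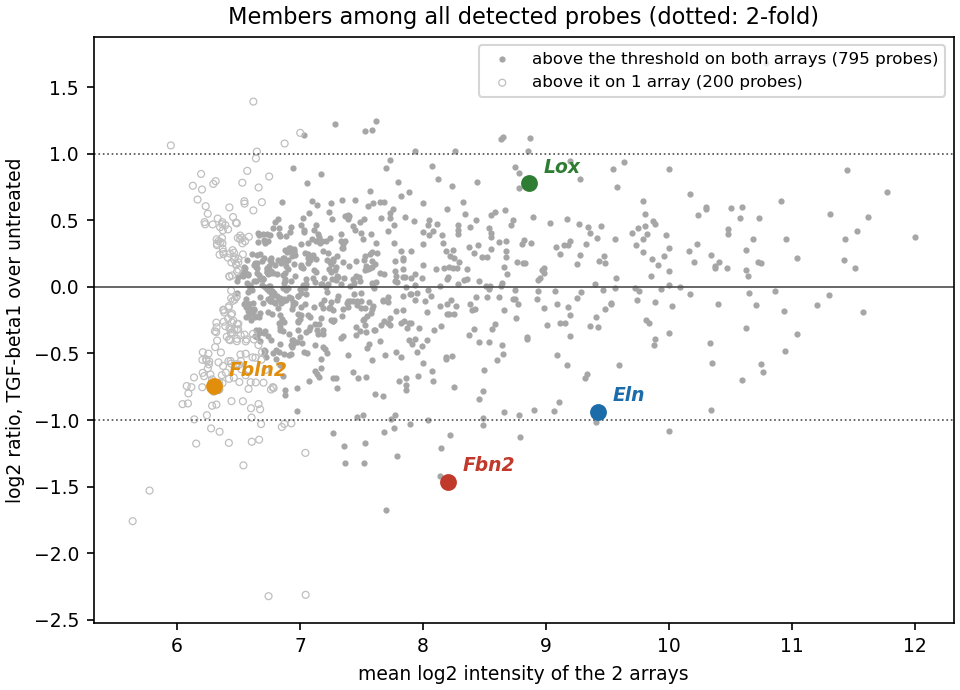
Log2 ratio of TGF-beta1 over untreated against the mean log2 intensity for the 995 probes detected on at least 1 array, with the 4 genes in colour. Fbn2, at -1.46, lies near the lower edge of the cloud, Eln at -0.94 and Lox at 0.78 lie inside the 2-fold lines, and Fbln2 lies among the dim probes.

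The gap between Lox and Eln or Fbn2 does not depend on a common scale of the arrays. The log2 ratio of Lox exceeded that of Eln by 1.72 and that of Fbn2 by 2.24, and that of Fbn2 was below that of Eln by 0.53 (difference -0.53). Division by the total signal, by the median of detected probes or by the housekeeping spots leaves such differences as they are. After the adjustments for place on the array given below, the difference between Lox and Eln was between 0.85 and 1.68, and that between Lox and Fbn2 between 1.91 and 2.37.

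The spread of ratios was wide among probes of the members' own brightness. The 795 probes were divided into 5 equal classes by mean log2 signal, each of 159. In the class that held Fbn2, with mean signals of 231 to 449, the SD of the log2 ratio was 0.51, and 36 probes (22.6%) differed by at least 1.5-fold. In the brightest class, which held Eln and Lox, the SD was 0.46 and 31 probes (19.5%) differed by at least 1.5-fold. In that class the log2 ratios spanned -1.08 to 1.68, which places Eln near the low end and Lox inside the range. In the class of Fbn2 the lowest log2 ratio was -1.46, which is Fbn2 itself.

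The spots of these genes lay in different parts of the array, and ratios differed between those parts. The array has 48 blocks. Eln and Fbln2 share block C4, whose detected probes had the lowest median log2 ratio of all blocks, -0.49, with 17 of 18 lower on the TGF-beta1 array. Within C4, Eln ranked 2 from the lowest, just above Fgf17, a fibroblast growth factor at -0.96, and Fbln2 ranked 5 from the lowest. The other detected probes of C4 spanned -0.96 to 0.41, so Eln and Fbln2 lay inside the range of their neighbours on the array.

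Fbn2 lay outside the range of its block, and Lox, like Eln, lay inside. In block D2, with 20 detected probes and a median of 0.22, Fbn2 had the lowest ratio, and the next was Eif3a, a translation initiation factor, at -0.50. Only 5 of those 20 probes were lower with TGF-beta1. In block I1, with 29 detected probes and a median of 0.24, Lox had the second highest ratio, after Mbl2, a complement-activating lectin, at 1.14. The other detected probes of I1 spanned -1.32 to 1.14, and 6 of the 29 were lower with TGF-beta1. From the median of its block Lox lay at 0.54 and Eln at -0.45, both within 1.5-fold.

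**Figure D3:**
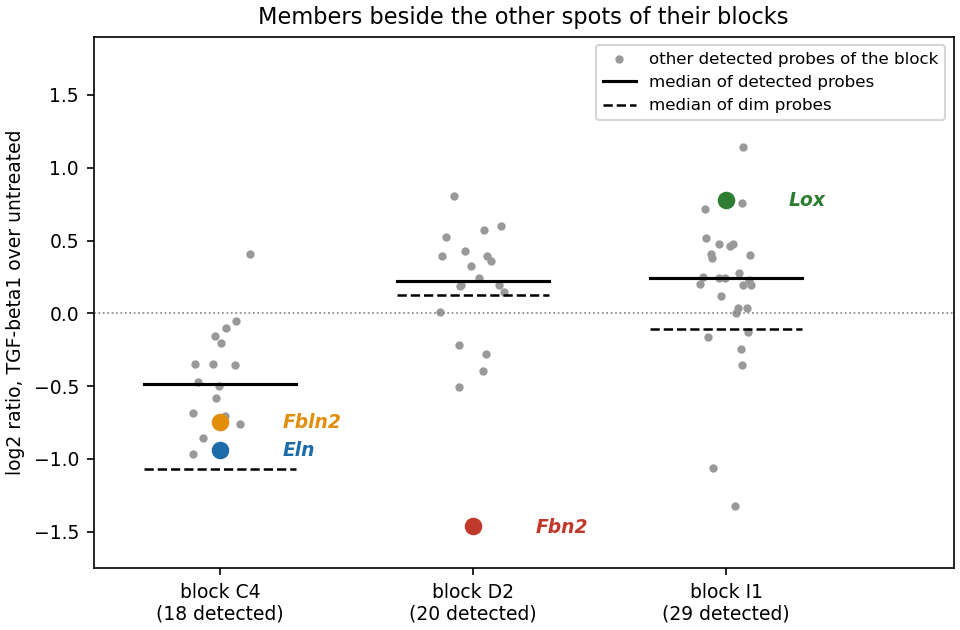
Log2 ratio of every detected probe in the array blocks that hold the 4 genes, with the block median of detected probes (solid line) and of dim probes below the threshold on both arrays (dashed line). Eln and Fbln2 lie within the low cloud of block C4, Fbn2 lies far below every other probe of D2, and Lox lies near the top of I1.

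Subtracting the median of the block's detected probes gave log2 ratios of -0.45 for Eln, -1.68 for Fbn2, -0.26 for Fbln2 and 0.54 for Lox. With all probes of the block, dim ones included, and the overall median added back, they were -0.20, -1.72, -0.013 and 0.65 in the same order of genes. The median of detected spots within 2 rows and 2 columns gave -0.68 for Eln, where it rests on 2 spots, and -1.45 for Fbn2, -0.40 for Fbln2 and 0.45 for Lox. With all spots of that window the value of Fbln2 was 0.019, on the other side of 0. The direction of Eln, Fbn2 and Lox was the same under every setting tried.

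The probes of C4 below the threshold on both arrays had lower ratios than its detected probes, whose median was -0.49. Among the detected probes low ratios were found at bright and at dim signals, as in Eln at -0.94 and Aimp1 at -0.86. The 61 probes of C4 below the threshold on both arrays had a median log2 ratio of -1.07, which in intensity was a difference of -14.9 units, against -3.37 over all dim probes of the array. The difference of Eln was -452 units and that of Fbln2 -41.2 units. Removing the block's dim-spot difference in intensity units, before the log was taken, left Eln at -0.89 and moved Fbln2 to -0.43. The adjusted value of Eln therefore ranged from -0.20 to -0.89, with the way the block was adjusted. After the dim-spot removal most other detected probes of C4 were still lower, such as Fgf17 at -0.90 and Acsl1 at -0.56. Ebp, Ces1c and Fbp2 were higher, at 0.48, 0.11 and 0.02, beside a median of 0.03 over all detected probes so adjusted. Whether the place of C4 acted on bright spots by addition or by a common factor was not tested.

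**Figure D4:**
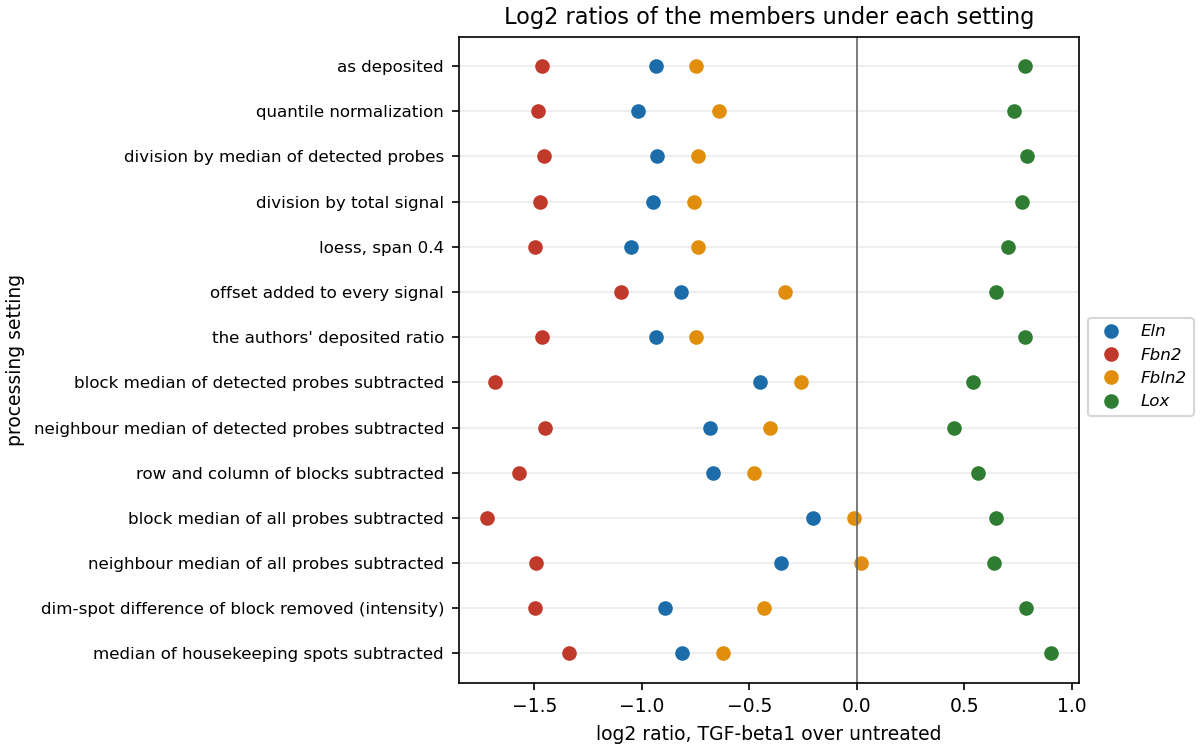
Log2 ratio of each gene (horizontal axis) under the deposited values and each other processing setting (vertical axis), 1 point per gene and setting. Fbn2 stays between -1.72 and -1.10 and Lox between 0.45 and 0.90, while Eln ranges from -1.05 to -0.20 and Fbln2 reaches 0.019.

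Over the deposited values and the other settings, 14 in all, Fbn2 was at least 1.5-fold lower in 14, Eln at least 1.5-fold lower in 11 and Lox at least 1.5-fold higher in 11. Eln lost that size when the block median was subtracted, over detected or over all probes, and with the median of all neighbouring spots. Lox lost it with the block median of detected probes, with the median of detected neighbours and with rows and columns of blocks. The 14 settings are not independent of one another. The authors' deposited ratio repeats the deposited values, and median, total and housekeeping scaling each shift every log2 ratio by the same amount.

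Few other genes of the elastic fibre were detected, and in the deposited values none of those with both signals over the threshold reached 1.5-fold, apart from Eln and Fbn2. Of 21 elastic fibre and microfibril genes listed, 10 were on the array, 3 exceeded the threshold on both arrays and 6 on at least 1. Mfap2, a small glycoprotein of microfibrils, had 159 with TGF-beta1 and 177 untreated, a log2 ratio of -0.15. After subtraction of the median of its detected neighbours the log2 ratio of Mfap2 was -0.69, but under every other setting it lay between -0.16 and 0.068.

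Fbln5, a fibulin needed to place elastin on microfibrils, was above the threshold on the TGF-beta1 array only. Its signal was 96.2 with TGF-beta1 and 67.3 untreated, at least 1.10-fold higher. Its measured log2 ratio was 0.51, beside -0.75 for Fbln2. Fbln5 lay in block G1, with a median of 0.34, and Fbln2 in C4, with -0.49. After subtraction of the block medians of detected probes Fbln5 was at 0.17 and Fbln2 at -0.26, and with those of all probes at 0.28 and -0.013. Ltbp3, which tethers latent TGF-beta to the matrix, had 96.4 with TGF-beta1 and 84.8 untreated, in the deposited values at least 1.10-fold higher. Its measured log2 ratio of 0.19 became 0.043 with the block median of detected probes and 0.15 with that of all probes. Fbln1, Mfap5, Ltbp1 and Ltbp2 were below the threshold on both arrays, with signals of 32.6 to 53.8, and no fold is given for them.

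Among enzymes and helpers of cross-linking and collagen processing, Lox had the largest log2 ratio in the deposited values. Of 21 such genes listed, 7 were on the array and 3 were above the threshold, all on both arrays. Fkbp10, a chaperone of procollagen, had 135 with TGF-beta1 and 113 untreated, a log2 ratio of 0.26. This became 0.62 after subtraction of the median of detected neighbours, where Lox was at 0.45. Under every other setting Fkbp10 lay between 0.12 and 0.38. Pcolce, which speeds removal of the procollagen C-propeptide, had 130.4 with TGF-beta1 and 163 untreated, a log2 ratio of -0.32. The lysyl hydroxylases Plod1 and Plod2, the prolyl hydroxylase subunit P4ha2 and the transglutaminase Tgm2 were below the threshold on both arrays.

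Over both lists together, 6 genes were above the threshold on both arrays, with a median log2 ratio of -0.24 beside 0.03 over all 795 probes, but Eln, Fbn2 and Lox are among them and were chosen on this contrast. Of the 6, 1 was at least 1.5-fold higher and 2 at least 1.5-fold lower, and these are Lox, Eln and Fbn2. Without Eln, Fbn2 and Lox, 0 of the remaining 3 passed 1.5-fold in either direction, where 15.3% of all 795 probes did. Their median log2 ratio was -0.15, and that of the 5 other genes detected on at least 1 array was 0.19.

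**Figure D5:**
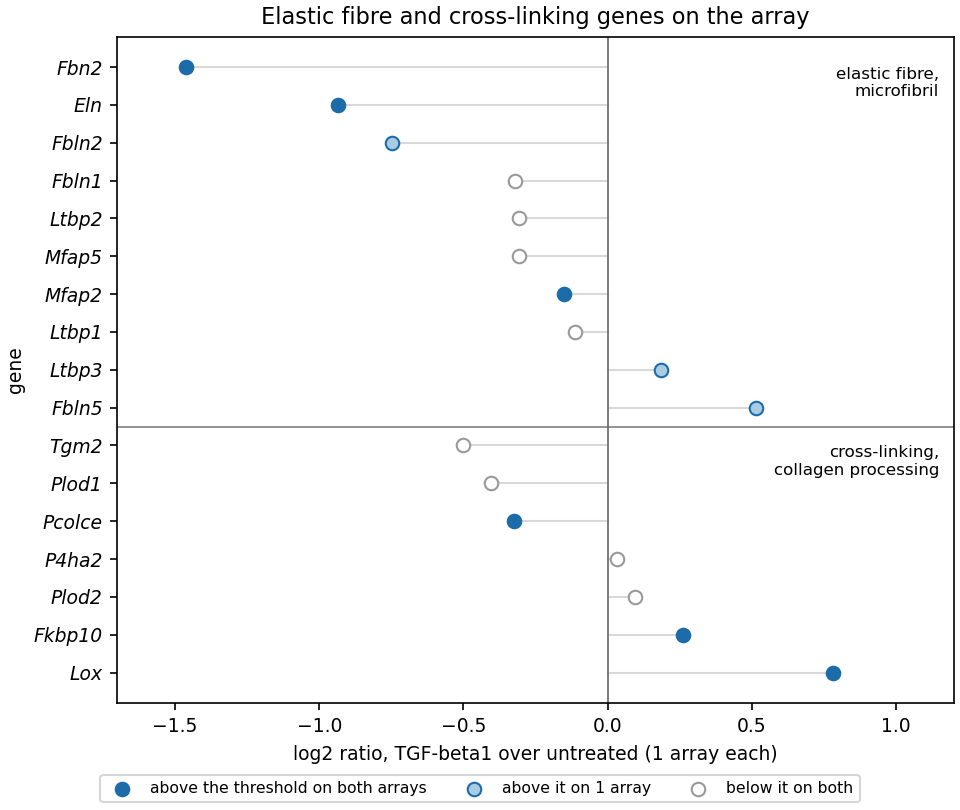
Log2 ratio of TGF-beta1 over untreated for the 17 genes of both lists on the array, elastic fibre and microfibril genes above the line and cross-linking and collagen processing genes below it. Filled points were above the threshold on both arrays, pale ones on 1 array and open ones on neither, and Fbn2, Eln and Lox have the largest log2 ratios in size among the filled points.

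Of the fibrillar collagens, which Lox cross-links, 5 were on the array and 3 were detected. The pair that exceeded the threshold with and without TGF-beta1 differed by less than 1.5-fold, where 15.3% of all 795 probes differed by at least that. Col1a2, a chain of type I collagen, had 1132 with TGF-beta1 and 1174 untreated, a log2 ratio of -0.05. Col5a2, a chain of type V collagen, had a log2 ratio of 0.13, and Col11a1, of cartilage collagen, was above the threshold only untreated and at least 1.18-fold lower.

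Of 7 other matrix proteins that touch elastic fibres or collagen on the array, 5 were detected. By sign 5 were lower with TGF-beta1 and 0 higher, beside 501 lower and 494 higher of all 995 detected probes. After subtraction of the block medians of detected probes 5 were lower and 0 higher, beside 484 lower and 484 higher of all. With all-probe block medians 4 were lower and 1 higher, beside 476 lower and 519 higher. Sparc, a collagen-binding glycoprotein, had the lowest ratio of those above the threshold on both arrays, with 631 on the TGF-beta1 array and 946 on the untreated array. Its log2 ratio of -0.58 became 0.036 when the all-probe median of its block, D4, was subtracted and -0.20 with that of detected probes. Lum, a collagen-binding proteoglycan, was at least 1.18-fold lower. Perlecan, Hspg2, had a log2 ratio of -0.11, tenascin C, Tnc, of -0.01 and Ccn2 of -0.02, so the last of these were close to 0.

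Of 7 elastases, other matrix proteases and inhibitors on the array, 3 were detected. Adamts5, a protease of aggrecan, was 2.14-fold lower with TGF-beta1, with 105 on that array and 225 untreated, where 2.26% of the 795 probes were at least 2-fold lower. Its log2 ratio of -1.09 became -0.88 with the block median of detected probes and -0.65 with that of all probes. With the dim-spot difference removed it was -0.95, so all of these adjusted values were within 2-fold. Ctsk, a cysteine protease that can cut collagen and elastin, was at least 1.09-fold lower, and the inhibitor Timp1 had a log2 ratio of 0.27. The elastases Elane and Mmp12 were below the threshold on both arrays. Of 4 receptors for these fibres on the array 2 were detected. Glb1, whose gene in human also gives an elastin-binding splice form, had a log2 ratio of 0.02 and the integrin subunit Itga5 of 0.16, or 0.61 after subtraction of the all-probe block median. In the list of TGF-beta ligands, receptors and early targets 3 of 6 on the array were detected, all on both arrays, and 0 passed 1.5-fold, where 15.3% of all 795 probes did. Tgfb3, a TGF-beta ligand, had a log2 ratio of 0.44, which became 0.68 after subtraction of the block median of detected or of all probes and so passed 1.5-fold. The corepressor Tgif1 had a log2 ratio of 0.17, or 0.43 and 0.33 with those block medians. Ccn2, named above and also in this list, had a log2 ratio of -0.02, or -0.05 and -0.11 with them.

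The array maker's own function classes placed Eln, Fbn2 and Fbln2 among extracellular matrix proteins and Lox among protein modification enzymes. This comparison was chosen after values had been seen, and the class shares genes with the lists above. Of 37 matrix probes, 18 were detected on at least 1 array, and 15 of those were lower and 3 higher by sign, with a median log2 ratio of -0.18 beside 501 lower, 494 higher and a median of -0.01 over all 995 detected probes. Without Eln, Fbn2 and Fbln2, 12 of 15 were lower and the median was -0.11. After subtraction of the block medians of detected probes 11 were lower and the median was -0.03, beside 484 lower and 484 higher of all detected probes so adjusted. With all-probe block medians 12 were lower and the median was -0.08, beside 476 lower and 519 higher of all. In the deposited values 0 of the 9 above the threshold on both arrays passed 1.5-fold, beside 15.3% of all such probes. The lowest ratio of the class was that of Ibsp, bone sialoprotein, which was above the threshold only untreated, with 47.9 on the TGF-beta1 array and 239.9 on the untreated array, at least 2.74-fold lower. The highest was that of Zp3, a glycoprotein of the egg coat, above the threshold only on the TGF-beta1 array, with 159.5 on that array and 60.7 on the untreated array, at least 1.82-fold higher. Of 30 protein modification enzymes 6 were detected, and in the deposited values Lox had the highest ratio, ahead of the immunophilin Fkbp1a at a log2 ratio of 0.55. After subtraction of block medians the order turned, with Fkbp1a at 0.80 and Lox at 0.54 over detected probes, and at 0.79 and 0.65 over all probes.

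The probes most like each gene on both arrays at once were found by distance in the plane of the pair of log2 signals, over 2 arrays, among named probes above the threshold on both. For Eln these were Stim1, a calcium sensor of the endoplasmic reticulum, Tnnc2 and Hmgn5, at distances of 0.058, 0.23 and 0.23. For Fbn2 they were the checkpoint kinase Chek2, the tubulin Tuba4a and the ferritin chain Fth1, at 0.098, 0.19 and 0.25. For Lox they were Mtch1, Uts2 and Insl5, at 0.11, 0.13 and 0.17. The nearest to Fbln2 were Fadd, Add1 and Sh3gl1, at 0.53, 0.55 and 0.55, distances set in part by the search itself, since Fbln2 was below the threshold with TGF-beta1. None of these probes is in the elastic fibre and cross-linking lists.

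Of 11 osteoblast markers, 6 were on the array and 5 were detected on at least 1 array, Alpl, Bglap, Col1a2, Ibsp and Sparc. Their summed signal, over all 6, was 2840 with TGF-beta1 and 3355 untreated, but the markers did not go the same way. Ibsp was at least 2.74-fold lower, and Col1a2 and Bglap had log2 ratios of -0.05 and -0.01. Sparc was at -0.58 and Alpl at 0.39, or 0.036 and 0.24 after subtraction of all-probe block medians. Phex was below the threshold on both arrays. Of smooth muscle markers, 2 of 5 on the array were detected, Acta2 and Cnn1, and the other 3 were below the threshold on both arrays. The summed signal of these 5 was 428 with TGF-beta1 and 383 untreated. Skeletal muscle markers, 4 of 5 detected, summed to 1490 with TGF-beta1 and 1799 untreated. By sign 3 of the 4 detected, Tnnc2, Tnnc1 and Casq1, were lower. Myod1 was higher, at a log2 ratio of 0.19, or -0.05 after subtraction of the block median of detected probes. Of 2 chondrocyte markers 0 were detected, so their sum, 101 with TGF-beta1 and 72.0 untreated, holds only signals below the threshold. Of 2 macrophage or osteoclast markers 1 was detected, with a sum of 95.4 with TGF-beta1 and 129 untreated, and of 3 adipocyte markers 1, with 371 with TGF-beta1 and 344 untreated. No endothelial marker was found on the array by symbol. The part of other cells in the values of Eln, Fbn2, Fbln2 and Lox was not tested, and fewer cells of a type cannot be told apart from less RNA per cell in such bulk samples. Cross-hybridisation of the probes was not tested either, as their sequences were not used here.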

How the data were processed

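Each sample was 1 Cy3-labelled array with RNA extracted by TRIZOL, per the labels' protocols. Per the file headers, the deposited spot intensities had been put through a global normalization, with Atlas Iris 1.01 as the program and Atlas Glass Mouse 3.8 as the array. How background was corrected, and with which scanner and image software, is not given in the sources used here. The authors' deposited ratio is the treated over the untreated intensity, which matched the quotient of the intensities within 0.0001 for 3754 of 3757 probes, and 3 had none because the treated value was not above 0. Probe identifiers were tied to gene names through the deposited ratio tables, equal in 3774 of 3774 spots, of which 17 without an identifier were left out. In 8 sheets, 16 columns of per-sample values matched no label and were not used.

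Symbols came from RefSeq accessions of assembly GRCm38.p6, used for names only, and 3597 probes had 1. Log2 ratios were taken of the deposited intensity with nothing added. The 4 genes and the 7 pathway and 7 marker lists were chosen with earlier results of these data known. Named were the 4 genes, up to 8 detected genes of each pathway list, and for each gene the 3 nearest probes. Genes named outside this rule, such as those beside a gene in its block or class, were chosen after their values were seen. With 1 array a group, no test was made. Python 3.11.15, pandas 2.3.3 and statsmodels 0.14.6 were used. The block-median and dim-spot adjustments were checked on simulated data in which block C4 had a uniform shift or offset. The simulated noise was smaller than the spread of ratios in these data, and the other adjustments were not checked against a limit.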

Additional observations from a re-analysis of the deposited data

How the results depend on the processing

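The deposited values were compared with 15 alternatives, of which 4 were added after the data were seen, and a log2 value was counted as moved when it shifted by at least the SD of the lambda spots, 0.20. The added ones were the all-probe block and neighbour medians, the dim-spot difference and the housekeeping spots. No paired analysis was possible because each group is 1 sample, and for the same reason no replicate was left out. Quantile, median, total and loess scaling, the deposited ratio and the housekeeping spots moved none of the 4 genes.

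Eln moved to -0.45 (block, detected probes), -0.20 (block, all probes), -0.68 and -0.35 (neighbours, detected and all) and -0.67 (rows and columns of blocks). Fbn2 moved to -1.68 and -1.72 with the 2 block medians and -1.10 with an offset of 96.7. Fbln2 moved to -0.26 and -0.013 (block, detected and all probes), -0.40 (detected neighbours), -0.48 (rows and columns), -0.34 (offset) and -0.43 (dim-spot difference), and turned to 0.019 with all neighbours. Lox moved to 0.54, 0.45 and 0.56 with the block, neighbour and row and column medians of detected probes.

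The difference between Lox and Eln moved to 0.99, 0.85, 1.14, 0.99 and 1.23 under the same 5 adjustments as Eln and to 1.47 with the offset. The difference between Lox and Fbn2 moved to 1.91 (detected neighbours) and 1.74 (offset), and that between Fbn2 and Eln to -1.23, -1.52, -0.77, -1.14, -0.90 and -0.28 in the order used for Lox and Eln. In the elastic fibre and cross-linking lists 3 genes passed 1.5-fold, or 1, Fbn2, with block medians of detected probes. The count was 2 with rows and columns, all-probe block medians or all neighbours, and 4 with either looser filter or with detected neighbours, where Fkbp10 and Mfap2 came in and Lox dropped out. The lists' median stayed between -0.35 and -0.10.

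Over all probes above the threshold on both arrays, 122 passed 1.5-fold and 30 passed 2-fold, or 67 and 4 with the offset, 206 and 51 among probes above it on at least 1 array, and 706 and 225 with no filter. The split at 1.5-fold was 57 higher and 65 lower, or 101 and 43 relative to the housekeeping spots, which raised the median log2 ratio of all 795 probes to 0.15. The housekeeping spot that gave the median, -0.12, matches a spot of block E3, whose detected probes had a median of -0.20. Whether place on the array set this shift was not tested. At 2-fold it was 12 and 18, or 22 and 10 relative to the housekeeping spots and 10 and 26 after loess. The cause of the changes was not tested. With 1 array per group the number of arrays limits the precision of every value, and Fbln2 was below the threshold with TGF-beta1.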
